A study of Homo sapiens with 7 samples.

Results

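The comparison described here set 6 captures made with probes against the 3'UTR of BRAF-X1 beside 1 capture made with scrambled probes, which together are all 7 samples of the study. The samples were chosen by their labels: 3 captures used the ODD probe set, 3 used the EVEN probe set and 1 was labelled as scrambled. All came from A375, an established human melanoma line grown in culture, cross-linked with formaldehyde and taken through the miRCATCHv2.0 procedure. The labels name no drug or genetic change in any group. The study's design text calls the ODD and EVEN captures independent, without saying whether each came from its own culture, so p-values measure the spread between these samples, which may be partly technical. The control has no replicate. The sample descriptions also carry a number, 9, 10 or 12, whose meaning the labels do not give. Replicates 1, 2 and 3 of both probe sets carry 9, 10 and 12 in turn, and the scrambled capture carries 12.

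MicroRNAs are short RNAs that guide Argonaute proteins to messenger RNAs, most often by pairing of their seed, the bases near the 5' end, with a site in a 3'UTR. Bound messages are usually degraded or translated less. BRAF is a kinase of the MAPK pathway and a frequent driver of melanoma, and X1 is one of its transcript isoforms, with a 3'UTR of its own. A capture with antisense probes is meant to enrich the microRNAs that sit on the chosen transcript, and scrambled probes, which have no intended target, give the RNA that comes down without one. The question of the comparison is therefore which microRNAs were more abundant with the X1 probes than with the scrambled probes.

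The microRNAs on which the comparison turned are shown with the seed, bases 2 to 8, in capitals. The sequences are RefSeq's mature sequences on GRCh38.p14, written 5' to 3'. The first had 0 reads in the scrambled capture and reads in every X1-probe capture. The next 5 share 1 seed, so that they can be set side by side as a family.
miR-184: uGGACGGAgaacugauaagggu
miR-17-5p: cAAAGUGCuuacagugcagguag
miR-20a-5p: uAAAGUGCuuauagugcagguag
miR-93-5p: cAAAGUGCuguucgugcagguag
miR-106a-5p: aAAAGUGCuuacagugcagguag
miR-106b-5p: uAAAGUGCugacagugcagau
Aligned from the 5' end, miR-106a-5p shares 22 bases with miR-17-5p, miR-20a-5p 21, miR-93-5p 19 and miR-106b-5p 18, so short or trimmed reads of the closest pairs may have been assigned to either name.

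Members of the 2 most abundant seed families are shown next, because they are described side by side below and differ within a family only outside the seed.
miR-92a-3p: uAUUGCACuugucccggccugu
miR-92b-3p: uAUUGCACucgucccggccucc
let-7a-5p: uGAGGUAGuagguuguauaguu
let-7i-5p: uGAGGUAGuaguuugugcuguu
let-7f-5p: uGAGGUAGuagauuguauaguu
The last set holds 6 abundant microRNAs whose scrambled value lay outside the X1-probe values and which are described in turn below.
miR-204-5p: uUCCCUUUgucauccuaugccu
miR-31-5p: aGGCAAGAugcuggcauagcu
miR-140-3p: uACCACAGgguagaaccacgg
miR-146b-5p: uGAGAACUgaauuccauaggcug
miR-3180-3p: uGGGGCGGagcuuccggaggcc
miR-3180: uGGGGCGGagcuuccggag

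On the genome, miR-184 lies at chr15:79209840-79209861 on the plus strand, within the span of the long non-coding RNA ANKRD34C-AS1. miR-17-5p (chr13:91350618-91350640) and miR-20a-5p (chr13:91351072-91351094) lie on the plus strand within MIR17HG, the host transcript of the miR-17-92 cluster. miR-93-5p (chr7:100093815-100093837) and miR-106b-5p (chr7:100094043-100094063) lie on the minus strand within the span of the protein-coding gene MCM7. miR-106a-5p lies at chrX:134170244-134170266 on the minus strand, within MIR106AHG. The 5 names of the family thus come from 3 loci.

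The libraries were shallow. Levels are given in RPM, the unit of the deposited table, in which every library has the same total. Over all entries of the table there were 4049 to 35508 reads per X1-probe library and 4647 for the scrambled one, and a single read was worth 28.2 to 247 RPM with X1 probes and 215 RPM with scrambled probes. With 1 entry kept per mature name, there were 3046 to 25679 reads with X1 probes and 3479 with scrambled probes. Counting intervals of single microRNAs use the totals over all entries, and those of shares of reads use the kept entries. Reads were found for 181 to 344 microRNAs with X1 probes and for 183 with scrambled probes. The libraries with number 12 were all shallow, at 4049, 4767 and 4647 reads. A value of 0 reads in the scrambled library still allows up to 794 RPM (exact 95% interval of the count, which covers counting error only), which is stricter than the usual floor of 3 reads, 646 RPM there, and is the bound used below. Since such values are shares, more or less RNA brought down in total would not be seen. In a bulk capture, fewer cells and less RNA per cell cannot be told apart either.

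By the distance described next, the X1-probe libraries that share number 12 with the control stood closest to it, 1 of them in particular. By correlation they stood farthest from it. Both bear on the results below. Over the 68 microRNAs with a mean of at least 1000 RPM, the Bray-Curtis distance, the share of RPM that would have to change for 2 libraries to match, was 7.60% between EVEN replicate 3 and the scrambled library. This was the smallest of the 21 distances. ODD replicate 3, the other X1-probe library numbered 12, was the next nearest to the scrambled library at 9.14%, and the other 4 were at 10.8% to 13.5%. Pearson correlation over the same microRNAs ranked the libraries otherwise. With the scrambled library it was 0.902 for EVEN replicate 3, 0.865 for ODD replicate 3 and 0.908 to 0.928 for the other 4. The distances between X1-probe libraries ran from 8.06% to 13.5% with a median of 10.9%, and those between X1-probe libraries and the scrambled library from 7.60% to 13.5% with a median of 11.6%, so the scrambled library lay within the spread of the X1-probe libraries. A chi-square test on the reads of microRNAs with at least 10 reads in the pair gave 1.36 per degree of freedom for EVEN replicate 3 against scrambled (p = 0.0283), and 2.07 to 5.51 for the other 20 pairs (highest p = 4.18e-07), of which the lowest was ODD replicate 3 against scrambled. For the same difference in profile this ratio grows with the number of reads, and the libraries numbered 12 were the shallowest. Its ranking therefore does not measure closeness. These tests compare libraries, not conditions. EVEN replicate 3 and the scrambled library were kept as separate samples, and values without EVEN replicate 3 are given where they differ.

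**Figure D1:**
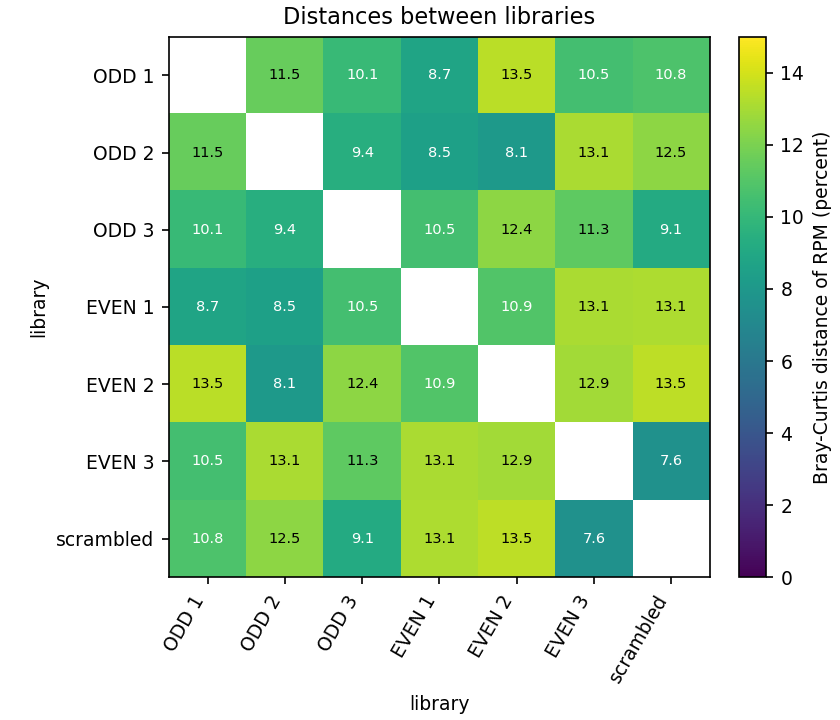
Bray-Curtis distance in percent between every 2 of the 7 libraries, over 68 microRNAs of at least 1000 RPM, with ODD, EVEN and scrambled libraries on both axes and the value in each cell. The lowest value, 7.60%, belongs to EVEN replicate 3 and the scrambled library, and the scrambled row spans nearly the same range as the rows of the X1-probe libraries.

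Against the scrambled library, miR-184 and miR-17-5p passed the test as higher with X1 probes, and no tested microRNA passed as lower. miR-184 is best studied in the eye, and miR-17-5p is the first microRNA of the miR-17-92 cluster, which promotes growth in many tumours. These 2 calls were 0.826% of the 242 microRNAs tested for a higher level, and the 0 lower calls were 0% (limma on log2 of RPM + 10, adjusted p under 0.05). These counts cannot be set against each other, because a microRNA was tested where at least 3 of the 7 libraries had 10 RPM or more, which X1-probe libraries alone can meet and the single scrambled library cannot. Both called microRNAs had 0 scrambled reads, as had 77 of the 242, and so entered through the X1-probe libraries, while none of the 9 names seen with scrambled probes only was tested. With no such filter limma gave 3 higher and 9 lower, the latter being those 9 names, with 1 to 3 reads each. At an unadjusted p under 0.05, limma gave 17 higher and 4 lower. The median log2 difference over all 242 was 0.10. Because the control is 1 library, limma assumed that it varies as the X1-probe libraries do.

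miR-184 stood at 554, 394 and 1976 RPM in ODD replicates 1 to 3, at 753, 897 and 839 RPM in EVEN replicates 1 to 3 and at 0 RPM in the scrambled library. Every X1-probe library held it, and ODD replicate 3 was far above the others, with 8 reads behind its value. Its mean was 902 ± 558 RPM (SD, n = 6), 1.14 times the 794 RPM that 0 scrambled reads allow. That mean was raised by ODD replicate 3, and the median of 796 RPM was nearly the same as this bound. The limma log2 difference was 6.33 (SE 1.08, 95% interval 4.13 to 8.52, adjusted p = 0.000358, higher in 6 of 6 libraries), a size that depends on the pseudocount because the control is at 0. Only 3 of the 6 libraries exceeded 794 RPM. Within the libraries numbered 12, which have nearly equal depth, miR-184 had 8 and 4 reads with X1 probes and 0 with scrambled probes.

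miR-17-5p stood at 739, 479 and 1235 RPM with ODD probes, at 1291, 345 and 629 RPM with EVEN probes and at 0 RPM with scrambled probes. No X1-probe library was at 0, and the highest values were in ODD replicate 3 and EVEN replicate 1. Its mean of 786 ± 393 RPM (SD, n = 6) was below the 794 RPM that 0 scrambled reads allow, so no fold is given, and 2 of the 6 libraries exceeded 794 RPM. The limma log2 difference was 6.16 (SE 1.14, 95% interval 3.85 to 8.47, adjusted p = 0.000662, higher in 6 of 6 libraries). In the libraries numbered 12 it had 5 and 3 reads against 0.

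Both calls rested on the scrambled library having no read. They held when any 1 X1-probe library was left out, with adjusted p by limma of at most 0.00732 and 0.0137. Both ended with a pseudocount of 250 (adjusted p = 0.117 and 0.2 by limma) and with the description number as a replicate block (adjusted p = 0.111 for each by limma), where the scrambled library is in effect compared with the other libraries numbered 12. That of miR-17-5p ended under quantile scaling (adjusted p = 0.0514 by limma). Without EVEN replicate 3 a further microRNA passed, miR-3605-3p, named here after its values were seen. It had 277, 451 and 741 RPM with ODD probes, 323, 414 and 0 RPM with EVEN probes and 0 RPM with scrambled probes. Its limma log2 difference was 4.51 with all libraries (adjusted p = 0.526) and 5.38 without EVEN replicate 3 (adjusted p = 0.0334), so this call turned on the 1 library in which it was not seen.

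Summed by seed, 163 families were tested, 2 of them (1.23%) were higher with X1 probes and 0% were lower (limma). At an unadjusted p under 0.05, 12 were higher and 2 lower. The filter was the same, so these counts cannot be set against each other either, and with no filter 1 family was higher and 8 were lower. With the number as a replicate block no family passed. Without EVEN replicate 3 a further family passed, CUCCGUG, which is miR-3605-3p alone (limma adjusted p = 0.0192, against 0.365 with all libraries). The seed GGACGGA belongs to miR-184 alone in the table and repeats its values. The other was the seed AAAGUGC, which joins miR-17-5p with miR-93-5p, miR-20a-5p, miR-106b-5p and miR-106a-5p and so raises the reads behind the value.

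The AAAGUGC family stood at 2679.7, 1324 and 1729 RPM with ODD probes, at 2368, 1794 and 1259 RPM with EVEN probes and at 430.4 RPM with scrambled probes, where it had 2 reads. Every X1-probe library was above the scrambled value, and 4 of the 6 were above the upper end of its exact 95% interval, which ran from 52.1 to 1554 RPM. The mean of 1859 ± 566 RPM (SD, n = 6) was 4.32 times the scrambled value, with a counting interval of the scrambled reads alone of 1.2 to 35.7. The limma log2 difference was 2.03 (SE 0.58, 95% interval 0.89 to 3.17, adjusted p = 0.0428). The call was lost in 12 of 17 other settings, among them the replicate block (adjusted p = 0.382) and leaving out ODD replicate 1 (adjusted p = 0.173), ODD replicate 2 (0.0986), EVEN replicate 1 (0.0539) or EVEN replicate 2 (0.103), while the log2 difference stayed between 1.59 and 2.15.

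Within the family, miR-17-5p and miR-93-5p held most of the reads. miR-93-5p, from the miR-106b-25 cluster, had 1386, 619.6 and 494 RPM with ODD probes, 969, 1173 and 629 RPM with EVEN probes and 430.4 RPM, 2 reads, with scrambled probes. All X1-probe libraries were above the scrambled one, yet all lay inside its counting interval, and the limma log2 difference of 0.92 (95% interval -0.66 to 2.49, adjusted p = 0.673) did not pass. miR-20a-5p, a neighbour of miR-17-5p in its cluster, had 5, 5 and 0 reads with ODD probes, 0, 3 and 0 with EVEN probes and 0 with scrambled probes. miR-106b-5p had 4 reads and miR-106a-5p 2 reads over all X1-probe libraries, too few to be tested, and 0 with scrambled probes. Of the family's 137 X1-probe reads, miR-17-5p held 50 and miR-93-5p 68.

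**Figure D2:**
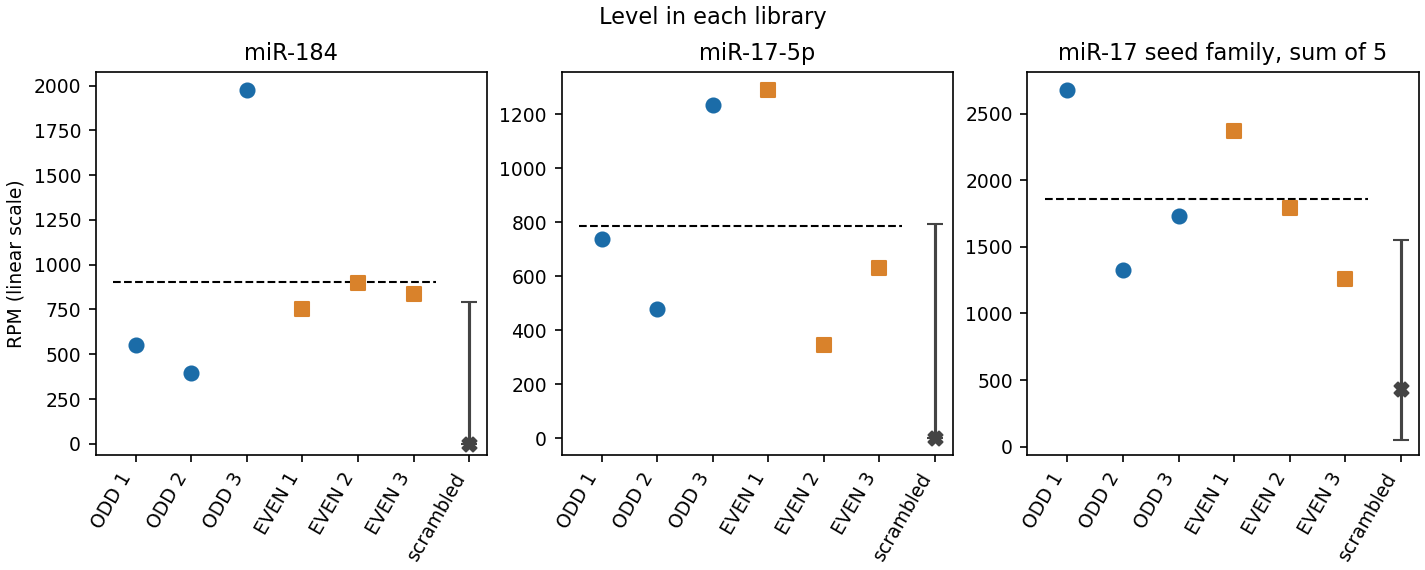
RPM on a linear axis in each ODD (circles), EVEN (squares) and scrambled (cross) library for miR-184, miR-17-5p and the summed AAAGUGC family of 5 microRNAs; the dashed line is the mean of the 6 X1-probe libraries and the bar is the exact 95% counting interval of the scrambled library. The scrambled cross lies under every X1-probe point in each panel, while its bar reaches 794 RPM for the single microRNAs and 1554 RPM for the family, above some of the points.

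A further group of 9 microRNAs was likewise absent from the scrambled library and present in every X1-probe library, without passing. It held miR-98-5p, a let-7 relative, miR-181a-3p and miR-181c-5p of the miR-181 family, miR-128-3p, a brain-enriched microRNA, and miR-421, miR-769-5p, miR-3180-5p, miR-1273h-5p and miR-6772-5p. miR-98-5p had 185, 197 and 247 RPM with ODD probes and 215, 552 and 419.6 RPM with EVEN probes, miR-181c-5p had 277, 338 and 247 RPM and 646, 69.0 and 419.6 RPM, and the means of the 9 ran from 267 to 363 RPM. Each of these means was smaller than the 794 RPM that 0 scrambled reads allow, and a fold would have no basis. Their limma adjusted p ran from 0.31 to 0.431. Of these 9, only miR-98-5p passed in any other setting (adjusted p = 0.0316 by limma with every microRNA kept and 0.0483 with no eBayes trend).

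Of the 242 microRNAs, 77 had 0 scrambled reads, and miR-184 was the 1 among them whose X1-probe mean was above the 794 RPM that such a count allows. That mean was raised by ODD replicate 3, and the median of miR-184, 796 RPM, was nearly at the bound. The other 76, miR-17-5p among them, had a mean under 794 RPM, so by the counts alone their absence from the scrambled library is not a measured difference. Over all 480 names in the table, 297 were seen with X1 probes only, 9 with scrambled probes only and 174 with both. With 1 entry kept per mature name, the names seen with X1 probes only held 1.42% to 2.49% of an X1-probe library's RPM over all entries. The names seen with scrambled probes only held 0.28% of the scrambled library's RPM. The latter were led by miR-3661 with 3 reads (646 RPM), followed by miR-4497 and miR-4745-3p with 2 reads each (430.4 RPM). As 6 libraries were set against 1, the numbers of names are not comparable by themselves.

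All 6 X1-probe libraries lay above the scrambled library for 27 of the 242 microRNAs (11.2%) and below it for 55 (22.7%). Any 1 of 7 interchangeable libraries would be the lowest for about 1 in 7 microRNAs, and the highest for as many. Lying wholly above or below is therefore no measured difference by itself. Among the 27, 11 had 0 scrambled reads, and among the 55, 25 had fewer than 4. Without EVEN replicate 3, 233 microRNAs were tested, and the other 5 libraries all lay above for 41 and below for 58 of them. With 1 library fewer, order alone puts more microRNAs wholly above or below. These counts therefore do not show an effect of that library. The 68 microRNAs of at least 1000 RPM have enough reads to name members, and there 9 lay above (13.2%) and 18 below (26.5%). Their log2 differences ran from -1.74 to 1.36 with a median of -0.08, and 63 of the 68 were under 1 in size.

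Above the scrambled value, the largest difference belonged to miR-204-5p, a microRNA of pigment cells and the retina that is encoded within TRPM3. It had 2310.1, 1352 and 2469.7 RPM with ODD probes, 2368, 2277 and 2937 RPM with EVEN probes and 861 RPM, 4 reads, with scrambled probes. The lowest X1-probe library was ODD replicate 2, the deepest one, and 5 of the 6 exceeded the scrambled library's exact upper bound of 2202 RPM. The limma log2 difference of 1.36 (SE 0.50, 95% interval 0.35 to 2.38, adjusted p = 0.31) did not pass, nor did it in any of 17 other settings, where it ran from 1.16 to 1.64.

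miR-31-5p, which is encoded near CDKN2A and is often lost with it in melanoma, had 2033, 3323 and 3952 RPM with ODD probes, 2152, 1725 and 1888 RPM with EVEN probes and 1076 RPM, 5 reads, with scrambled probes. Its ODD replicates 2 and 3 were the only libraries above the scrambled upper bound of 2509 RPM (limma log2 difference 1.15, 95% interval 0.16 to 2.13, adjusted p = 0.426). miR-140-3p, from a hairpin enriched in cartilage, had 2865, 2253 and 3458 RPM with ODD probes, 2798, 3036 and 2098 RPM with EVEN probes and 1291 RPM, 6 reads, with scrambled probes. The 6 values overlapped the scrambled interval in 3 libraries (limma log2 difference 1.06, 95% interval 0.14 to 1.99, adjusted p = 0.426). Neither passed in another setting.

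let-7i-5p, of the let-7 family that restrains growth genes such as RAS and MYC, rested on more reads. It had 13306, 13631 and 13584 RPM with ODD probes, 12269, 14353 and 10069 RPM with EVEN probes and 8177 RPM, 38 reads, with scrambled probes. The X1-probe values were tight, and 5 of 6 exceeded the scrambled upper bound of 11207 RPM, the exception being EVEN replicate 3. Its limma log2 difference was 0.64 (95% interval 0.01 to 1.28, adjusted p = 0.55). The others that lay wholly above were miR-125b-1-3p, miR-27a-3p, miR-26a-5p, miR-21-5p and miR-181b-5p, with log2 differences of 0.68, 0.63, 0.47, 0.32 and 0.23, none of which passed by limma.

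Below the scrambled value, miR-1273f, an entry that overlaps an Alu repeat, stood lowest. It had 1294, 873 and 494 RPM with ODD probes, 753, 966 and 1888 RPM with EVEN probes and 3228 RPM, 15 reads, with scrambled probes. EVEN replicate 3 came nearest to the scrambled value and the other 5 fell below its exact interval, which began at 1808 RPM. The limma log2 difference of -1.74 (95% interval -3.07 to -0.42, adjusted p = 0.31) did not pass.

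miR-146b-5p, a regulator of inflammatory signalling raised in thyroid cancer, had 462, 535 and 741 RPM with ODD probes, 753, 966 and 1468 RPM with EVEN probes and 2367 RPM, 11 reads, with scrambled probes. Again EVEN replicate 3 was the highest X1-probe library, and the other 5 were below the scrambled interval, which began at 1182 RPM (limma log2 difference -1.62, 95% interval -3.02 to -0.22, adjusted p = 0.426). Its close relative miR-146a-5p did not follow: it ran from 4089.5 to 6083 RPM with X1 probes and was at 4519 RPM with scrambled probes.

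miR-3180-3p and miR-3180 share their first 19 bases, the whole of miR-3180, so their reads cannot be told apart by that stretch. miR-3180-3p ran from 1295 to 3986 RPM with a median of 2582 RPM against 4949 RPM with scrambled probes, and miR-3180 from 1014 to 3566 RPM with a median of 2181 RPM against 3873 RPM. In both, EVEN replicate 3 was the highest and the other 5 libraries were below the scrambled interval. The limma log2 differences were -0.98 (adjusted p = 0.526) and -0.93 (adjusted p = 0.66). miR-3180-5p, from the other arm of the hairpin, had 0 scrambled reads and 92.4 to 629 RPM with X1 probes. All of these values were under the 794 RPM that 0 scrambled reads allow, so its direction is not known.

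miR-125b-5p, a microRNA abundant in many differentiated cells, ran from 4347 to 6713 RPM with a median of 5797 RPM against 8823 RPM, 41 reads (limma log2 difference -0.67, 95% interval -1.39 to 0.06, adjusted p = 0.66). Its highest library was again EVEN replicate 3. The other arm of 1 of its hairpins, miR-125b-1-3p, ran the opposite way, from 6293 to 10144 RPM against 4734 RPM. miR-1307-3p, miR-24-3p, miR-5096, miR-584-5p and miR-423-3p had log2 differences of -0.86, -0.76, -0.62, -0.61 and -0.59. None of these passed by limma with all libraries or in any other setting.

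**Figure D3:**
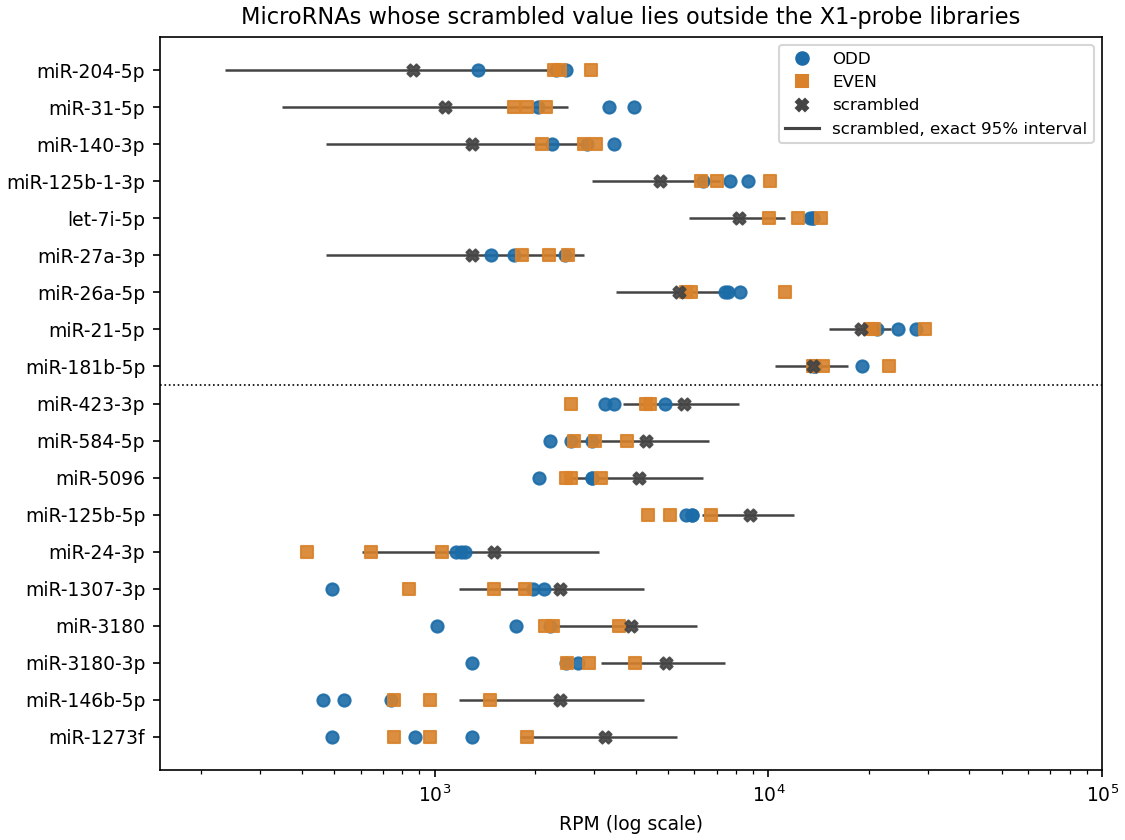
RPM on a log axis for the 9 microRNAs of at least 1000 RPM whose 6 X1-probe libraries all lay above the scrambled library (upper block) and the 10 with the largest differences among the 18 that all lay below it (lower block); circles are ODD, squares EVEN, crosses scrambled, and the line is the scrambled library's exact 95% counting interval. In the lower block EVEN replicate 3 is the square nearest the cross for miR-1273f, miR-146b-5p, miR-3180 and miR-3180-3p.

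For some abundant microRNAs the fit set bounds on the difference. The limma 95% interval lay within 2-fold in either direction for 24 of the 242 (9.92%), with log2 differences from -0.38 to 0.32. The count rests on the spread that limma's trend assigns to abundant microRNAs and was 0 without the trend. It was 15 to 24 when 1 library was left out, the lowest being without ODD replicate 3. With 1 entry kept per mature name, these 24 held 49.8% of the scrambled library's RPM over all entries and 48.6% to 50.7% in the X1-probe libraries. The lowest mean among them was 2458 RPM, for miR-30e-5p. By seed, 16 of 163 families (9.82%) were bounded in this way. The bound is on shares of RPM.

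miR-92a-3p, the most abundant microRNA and a member of the miR-17-92 cluster like miR-17-5p, ran from 138799.7 to 162539 RPM with a median of 144313 RPM and was at 142673 RPM with scrambled probes, inside that range (log2 difference 0.05, 95% interval -0.48 to 0.58). miR-92b-3p, with the same seed, ran from 30556 to 50346 RPM with a median of 39887 RPM, below the 51216 RPM of the scrambled library in every case, with an interval of -0.98 to 0.22. Together with miR-25-3p and miR-32-5p the seed AUUGCAC held 173933 to 214391 RPM against 197547 RPM (log2 difference -0.04, 95% interval -0.51 to 0.43).

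let-7a-5p ran from 33984 to 53917 RPM with a median of 42739 RPM and was at 37659 RPM with scrambled probes, with overlap. Summed over the 9 names with the seed GAGGUAG, the let-7 family ran from 67128 to 95997 RPM with a median of 84629.8 RPM against 64343 RPM. Every X1-probe library was above the scrambled one, with EVEN replicate 3 nearest to it, but the limma log2 difference of 0.36 (95% interval -0.14 to 0.86, adjusted p = 0.6) did not pass. let-7f-5p was unevenly spread between the probe sets, at 7669.6, 13912 and 7162 RPM with ODD probes and 17865, 26773 and 17831 RPM with EVEN probes. Its scrambled value of 7962 RPM lay among the ODD values and under all EVEN values. The ODD minus EVEN log2 difference of let-7f-5p was -1.16 (limma, adjusted p = 0.0242).

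Among other abundant microRNAs, miR-21-5p, raised in most solid tumours, had a log2 difference of 0.32 (95% interval -0.29 to 0.93). miR-181a-5p, miR-100-5p, miR-423-5p, miR-22-3p and miR-27b-3p had log2 differences of 0.07, -0.10, -0.11, 0.29 and -0.11, all with intervals within 2-fold. miR-191-5p ran from 26367 to 41326 RPM against 40026 RPM, with the 2 highest X1-probe values in the libraries numbered 12, at 39763 and 41326 RPM. miR-222-3p, which restrains p27 and KIT and promotes melanoma growth, ran from 12628 to 24450.5 RPM against 23241 RPM and likewise had its highest X1-probe values in the libraries numbered 12, at 24450.5 and 20768 RPM. Its interval of -1.14 to 0.18 was not within 2-fold. What the number 12 marks, and its part in these values, was not tested.

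The precision depended on the level. For the 17 microRNAs of at least 10000 RPM the 95% interval reached a median of 0.62 on the log2 scale to either side, 1.54-fold, and for the 51 between 1000 and 10000 RPM it reached 0.92, 1.89-fold. It reached 2.31, 4.96-fold, for the 51 between 300 and 1000 RPM, where both called microRNAs lie. It reached 4.95, 31.0-fold, for the 74 between 100 and 300 RPM, and 4.75, 26.9-fold, for the 49 under 100 RPM. Below 300 RPM, smaller differences were not detectable at this depth.

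**Figure D4:**
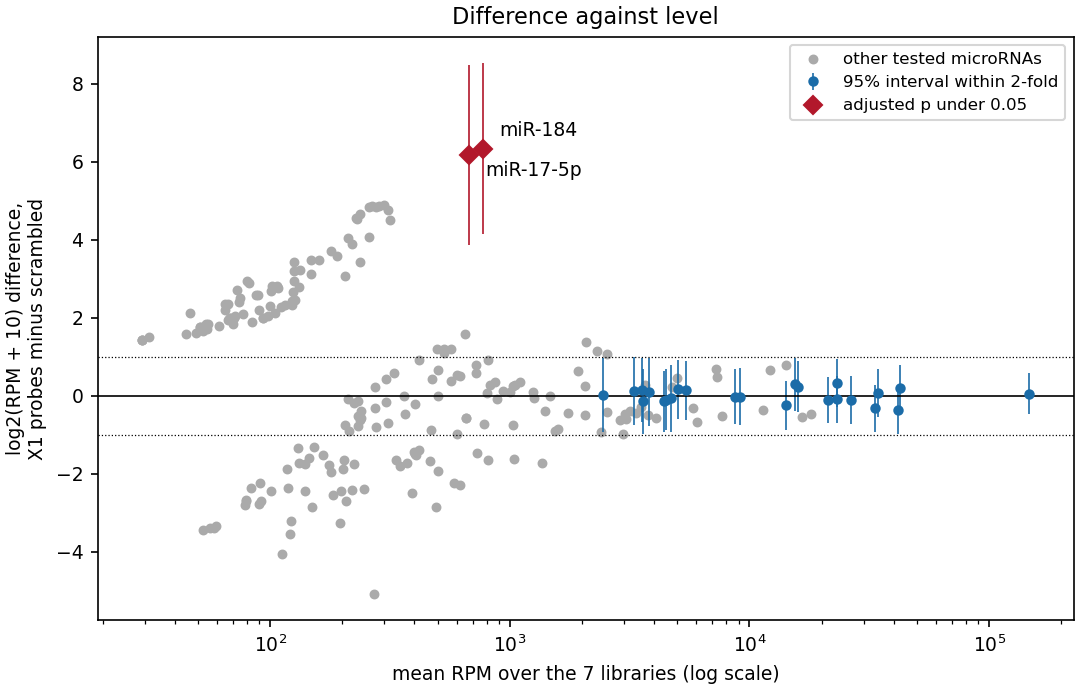
Log2 difference of RPM + 10 between X1 probes and scrambled probes (vertical) against mean RPM over the 7 libraries on a log axis (horizontal) for the 242 microRNAs tested; diamonds with bars are miR-184 and miR-17-5p with their 95% intervals, blue points with bars are the 24 microRNAs whose interval lies within 2-fold, and dotted lines mark 2-fold. The 68 microRNAs of at least 1000 RPM lie between -1.74 and 1.36, and the arm of points rising to the called pair is formed by microRNAs with 0 scrambled reads.

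By family and function, the counts of members that passed were low throughout, and no list had a member that passed as lower. The medians below are of log2 differences over tested members, beside a median of 0.10 over all tested microRNAs. A second median, called at the bound, takes the difference as 0 for microRNAs with 0 scrambled reads and a mean not over 794 RPM. It was 0 over all tested microRNAs. As 76 of the 242 are set to 0 in this way, a median of 0 at the bound follows in part from that setting. Over all 242, 0.826% passed as higher, 11.2% lay wholly above and 22.7% wholly below the scrambled value. Among microRNAs of the miR-17, miR-18 and miR-19 seeds, 1 of 4 tested members passed, against 0.826% of all tested. This was the miR-17-5p already described, with 0 scrambled reads and a mean under 794 RPM, so it adds nothing further about the list. The median over the tested members was 1.62, or 0 at the bound. The summed level of the list was 1468 to 2865 RPM with X1 probes and 646 RPM, 3 reads, with scrambled probes. miR-19b-3p, a main oncogenic member of the cluster in lymphoma models, had 108 to 309.8 RPM against 215 RPM.

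In the families that regulate growth and differentiation, none of the tested members passed. The let-7 family had 9 tested members with a median of 0.19, or 0.08 at the bound, 2 wholly above and 1 wholly below the scrambled value, against 11.2% and 22.7% of all tested. The miR-25/92 seed had 3 with a median of 0.05. The miR-181 family, which acts in immune cell development, had 4 with a median of 0.40, or 0.15 at the bound, and summed to 42727 to 69487 RPM against 46051 RPM. The group of miR-15, miR-16, miR-103 and miR-107, which restrains the cell cycle, had 5 with a median of 0.13, or 0 at the bound, and the miR-23/27/24 clusters had 5 with a median of 0.28.

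The miR-30 family had 5 tested members with a median of -0.02 and none outside the X1-probe range. The arms of miR-221 and miR-222 had 4 with a median of -0.25, the miR-99/100 and miR-125 group 4 with a median of -0.29, and the miR-320 family 3 with a median of -0.46. The miR-10 and miR-196 group, encoded in the HOX clusters, had 4 with a median of -0.06, or -0.19 at the bound. Its summed level was 24579.6 to 31676 RPM with X1 probes and 37659 RPM with scrambled probes, so no X1-probe library reached the scrambled one. Within it miR-10a-5p had 13768, 15574 and 14325 RPM with ODD probes, 14098, 14146 and 20978 RPM with EVEN probes and 22595 RPM with scrambled probes. EVEN replicate 3 alone was near the scrambled value, and the log2 difference of -0.56 (95% interval -1.19 to 0.06, adjusted p = 0.668 by limma) did not pass.

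A list of 10 microRNAs of pigment cells and melanoma had 5 in the table, all tested, with a median of -0.03 and a summed level of 29811 to 40751 RPM against 37874 RPM. Absent from the table were miR-211-5p, miR-506-3p, miR-508-3p, miR-513a-5p and miR-514a-3p. Of the members present, miR-221-3p, miR-222-3p and miR-146a-5p were abundant in every library and miR-204-5p had reads in all. The last, miR-509-3p, of an X-linked cluster, had 0 to 2 reads. Of 8 tested growth-promoting microRNAs of tumours 1 passed, again miR-17-5p, with a median of -0.06. Of 7 tested growth-restraining ones none passed, with a median of 0.13, or 0 at the bound.

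A list of 21 entries that overlap structural RNA or repeats had 20 tested members, of which none passed. Its median was -0.54, with 0 wholly above and 7 wholly below the scrambled value, against 11.2% and 22.7% of all tested. Their summed level was 24752 to 33450.4 RPM with X1 probes and 36583 RPM, 170 reads, with scrambled probes, so the scrambled library was above every X1-probe library. The most abundant, miR-1246, which matches U2 snRNA, ran from 4071 to 7162 RPM against 6886 RPM, and miR-1260a, miR-1260b, miR-619-5p and miR-7704 had intervals within 2-fold. Farther from the scrambled value, miR-1273a ran from 0 to 538 RPM against 1506 RPM, 7 reads.

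Markers of other cell types were scarce in all libraries. Of 7 blood markers 5 were in the table and summed to 0 to 629 RPM with X1 probes against 215 RPM, with miR-451a, miR-142-3p and miR-223-3p at 0 in the scrambled library. Of 6 epithelial markers 3 were in the table and summed to 108 to 494 RPM against 0 RPM. Of 5 muscle markers 2 summed to 84.5 to 741 RPM against 646 RPM, and of 3 endothelial and liver markers 2 summed to 0 to 419.6 RPM against 430.4 RPM, 2 reads. Of 4 neuronal markers 3 were in the table, and they summed to 185 to 494 RPM against 1291 RPM. This sum was led by miR-9-5p, with 6 scrambled reads and a limma log2 difference of -1.93 (95% interval -4.18 to 0.33, adjusted p = 0.668). None of these markers passed.

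The libraries were also compared by what their reads are made of, over 1 row per mature name. The 5p arm held 47.9% to 52.7% of the reads with X1 probes and 48.5% with scrambled probes (exact 95% interval 46.8% to 50.2%). Reads that start with U, the base that Argonaute proteins favour, made up 64.1% to 68.5% against 65.5%, and the mean length was 22.0 to 22.1 against 22.1 bases. The scrambled library lay inside the X1-probe range for these features.

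It lay just outside for others. MicroRNAs numbered 1000 or above, which were described late and are mostly scarce, held 6.37% to 7.85% of the reads with X1 probes and 8.65% with scrambled probes (exact 95% interval 7.74% to 9.64%, exact two-sided permutation p = 0.143). The mean GC content was 49.6% to 51.1% against 51.3% (exact two-sided permutation p = 0.143). With 6 libraries against 1, a permutation test cannot give less than 0.143, so this design cannot reach 0.05 for any such share. Across 57 microRNAs of at least 1000 RPM with a sequence, the log2 difference had a Spearman correlation of -0.37 with GC content and -0.27 with length. This describes microRNAs that share the same 7 libraries, which are not independent replicates, and carries no p.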

How the data were processed

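Small RNA from 7 captures was compared. The deposited table gives RPM, reads scaled by the authors to a fixed total per library, for 498 entries of hairpin and mature name. CASAVA 1.8 and cutadapt 1.2.1 were used per the submitters' processing notes, while aligner, build, annotation and counting rule were not given in the sources used here. For each of 480 mature names the hairpin entry with the most RPM was kept. Values were divided by the smallest value of their library to recover reads, and 100% came out whole at a tolerance of 1e-06 reads. RPM was used in the limma and permutation tests, and recovered reads in counting intervals and in chi-square tests between libraries.

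The test, two-sided, was limma 3.58.1 (R 4.3.3) applied to log2(RPM + 10). It fitted ODD, EVEN and scrambled as separate groups, used a trended eBayes and adjusted p-values by Benjamini-Hochberg at 0.05 over all microRNAs at 10 RPM or more in at least 3 of 7 libraries. The contrast was the mean of ODD and EVEN against scrambled, with 4 residual degrees of freedom. Seed families sum RPM over names that share bases 2 to 8, for the 406 names with a RefSeq mature sequence. Log2 differences are on this scale, which understates changes of low microRNAs and, against 0 reads, follows the pseudocount. Intervals of single counts are exact Clopper-Pearson intervals at 95%; reads carry no molecular identifiers, so intervals and floors cover counting error only. The fit was run on simulated reads with known changes and counting error only, as a check of direction. That check does not give the rate of false calls for microRNAs with 0 reads in the single control.

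Named microRNAs are those that passed, those absent from the scrambled library and present in every X1-probe library, those with at least 2 scrambled reads and none with X1 probes, up to 10 in each direction of at least 1000 RPM with the scrambled value outside the X1-probe range, the 10 most abundant and the 2 most abundant of each list. For families, those that passed and the 5 most abundant are named. The comparison, the lists and the naming rule were chosen with earlier results of these data known. Other pseudocounts, filters and scalings, a replicate block and leaving out each X1-probe library were tried as alternatives.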

Additional observations from a re-analysis of the deposited data

Results flagged for a closer look

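Of 66 named microRNAs and seed families, 10 had 1 X1-probe library farther from the other 5 than Dixon's 95% criterion allows, and chance gives about 1 such group in 20. Among the microRNAs absent from the scrambled library, ODD replicate 3 stood out for miR-184 at 1976 RPM, with 394 to 897 RPM in the others, and so did the seed GGACGGA, which is the same microRNA, at 1976 RPM. ODD replicate 3 was also high for miR-6772-5p at 988 RPM (84.5 to 419.6 RPM in the others) and for the epithelial marker miR-141-3p at 494 RPM, which is 2 reads (0 to 185 RPM in the others). In this library 1 read is worth 247 RPM. ODD replicate 1 was high for miR-421 at 647 RPM (138 to 247 RPM in the others) and for miR-16-5p, a restrainer of the cell cycle, at 7947 RPM (4416 to 5661 RPM in the others). It was low for the neuronal miR-9-5p at 92.4 RPM, 1 read, with 345 to 494 RPM in the others.

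EVEN replicate 1 was high for miR-1273h-5p at 646 RPM (69.0 to 277 RPM in the others), and EVEN replicate 2 for miR-320b at 3243 RPM (988 to 1722 RPM in the others). EVEN replicate 3 was high for miR-10a-5p at 20978 RPM, 100 reads, with 13768 to 15574 RPM in the others and 22595 RPM in the scrambled library.

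The probe sets differed for let-7f-5p, whose log2 difference of ODD minus EVEN was -1.16 (limma, adjusted p = 0.0242, with every ODD library under every EVEN library). Its difference from the scrambled library therefore depends on which probe set is read.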

How the results depend on the processing

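The count of microRNAs higher with X1 probes fell from 2 to 0 with a pseudocount of 250, with a mean of at least 1000 RPM required (which leaves out both) and among the libraries numbered 12 alone (where the filter leaves out both), and to 1 under quantile scaling. It was 2 to 3 when 1 X1-probe library was left out. With no filter 9 microRNAs, those seen with scrambled probes only, and 8 seed families were lower. Seed families higher numbered 1 with a pseudocount of 1 or 50, with no filter or with at least 1000 RPM, and 0 with a pseudocount of 250, under quantile scaling, without the eBayes trend and in number 12 alone, and 1 to 3 with 1 library left out. Intervals within 2-fold numbered 0 without the trend, 13 in number 12 alone and 15 to 24 with 1 library left out, with the lowest count without ODD replicate 3. MicroRNAs with every X1-probe library above the scrambled one numbered 9 at 1000 RPM or more, 53 in number 12 alone and 28 to 41 with 1 library left out, and those below it 18 at 1000 RPM or more. These counts come from different sets of tested microRNAs. Number 12 alone and the fits with 1 library left out also had fewer X1-probe libraries, where order alone puts more microRNAs wholly above or below. The counts are therefore not comparable with each other or with the main count, and a higher one shows no larger effect. Where a filter or fewer libraries did not construct the change, the cause was not tested.

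Same-numbered ODD and EVEN libraries did not deviate together (r = -0.06, -0.04 and -0.38 over 68 microRNAs), so they were not treated as pairs. That check leaves out the scrambled library, which has no replicate to deviate from. Whether number 12 ties it to ODD and EVEN replicate 3, its nearest libraries by Bray-Curtis distance but not by correlation, was not tested. With the number as a replicate block, 0 microRNAs and 0 seed families were higher. The block left 2 residual degrees of freedom.

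Small differences changed sign. Under the block and in number 12 alone alike, the log2 difference was -0.084 for miR-181a-5p, 0.018 for miR-191-5p and its seed AACGGAA, 0.015 for miR-423-5p, 0.090 for miR-30d-5p, -0.052 for miR-16-5p, 0.85 for miR-486-5p, 0.030 for the seed AUUGCAC and -0.033 for the seed ACAUUCA. With median-of-ratios scaling it was 0.045 for miR-221-3p, 0.046 for miR-30d-5p and 0.070 for AUUGCAC, with quantile scaling 0.027 for miR-27b-3p, and with a pseudocount of 250 0.10 for miR-486-5p. With 1 library left out it ran from -0.033 to 0.15 for miR-181a-5p, -0.12 to 0.11 for miR-221-3p, -0.13 to 0.084 for miR-30d-5p, -0.069 to 0.21 for miR-619-5p and -0.94 to 0.56 for miR-486-5p. Over named microRNAs and families, 1029 of the comparisons with another setting kept direction and side of the threshold, 21 lost and 2 gained the call, and 31 changed sign.

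The planned count tests on recovered reads were not run, although the reads came out whole. The depth of the single scrambled library limits every microRNA under about 1000 RPM.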
